A study of Mus musculus with 18 samples.

Results

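Expression of 10 genes of the ATF4 and CHOP stress response was followed across pancreatic islets of mice lacking, carrying 1 copy of, or carrying both copies of Slc30a8, the gene of the zinc transporter ZnT8, with and without inflammatory cytokines. The genes were Atf4, Atf5, Ddit3, Chac1, Trib3, Asns, Sesn2, Nupr1, Slc7a11 and Psat1, taken by symbol from the table of read counts. These 10 genes hold 11 of its 55536 rows, because Ddit3 stands under 2 gene IDs, of which the shorter had 0 reads in all 18 libraries. All 105 exon bases of the shorter are shared with the longer on the same strand. How reads on shared bases were counted is not given, so the 0 says little about that entry. All 10 genes passed the filter on low counts, as did 17590 rows in all. The groups were islets of ZnT8 -/- (KO), ZnT8 +/- (Het) and ZnT8 +/+ (WT) mice, each with 3 cytokine-treated and 3 untreated libraries. Every mouse was a 17-week-old male of the NOD.CB17-Prkdcscid/NCrCrl strain, so KO, Het and WT mice alike carried the scid mutation of Prkdc, which blocks the maturation of T and B cells. After an overnight rest the islets were held for 24 h in RPMI1640 medium, either with IFN-gamma at 10 pg/ml, IL-1beta at 150 pg/ml and TNF-alpha at 100 pg/ml together or with no cytokine. Both sets were cultured islets, so untreated does not mean freshly isolated.

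ATF4 and CHOP belong to the integrated stress response. In this pathway a sensor kinase such as PERK, which responds to misfolded protein in the endoplasmic reticulum, or GCN2, which responds to missing amino acids, phosphorylates the translation factor eIF2alpha; general protein synthesis falls while the ATF4 message is translated more. ATF4, often paired with CEBP family partners, switches on genes of amino acid synthesis and uptake, tRNA charging and redox defence, and CHOP joins it when stress lasts. Beta cells make very large amounts of proinsulin and are known to depend on this pathway, and cytokines that raise nitric oxide are a classic cause of stress in them.

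Stretches of 4 promoters are shown first, because they hold the same letters that ATF4 is known to bind while their genes did not behave alike. Under cytokines Chac1 and Asns fell, Slc7a11 rose and Nupr1 was not called. The CEBP-ATF response element has the core TGATGNAA, and RefSeq promoters on GRCm38.p6, from 250 bases before to 50 bases after each gene start, were read on both strands for it. Capitals mark the core, which appears as TTGCATCA where it lies on the other strand. Each line runs 5′ to 3′ on the strand of its gene. The Chac1 stretch is at chr2:119351023-119351082 on the plus strand, and the others are on the minus strand, Asns at chr6:7693214-7693243, Nupr1 at chr7:126625562-126625591 and Slc7a11 at chr3:50443627-50443705.
Chac1: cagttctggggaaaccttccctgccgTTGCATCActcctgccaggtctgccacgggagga
Asns: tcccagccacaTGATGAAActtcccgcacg
Nupr1: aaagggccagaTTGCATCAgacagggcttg
Slc7a11: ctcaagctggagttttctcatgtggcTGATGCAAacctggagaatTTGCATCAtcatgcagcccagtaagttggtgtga
The core began 193 bases before the RefSeq start of Chac1, 23 before that of Asns and 110 before that of Nupr1. In Slc7a11 it stood in 2 copies on opposite strands, 66 and 47 bases before the start. Trib3 held it as TTACATCA, beginning at base 15 after the start. These starts are those of RefSeq and need not be the outer end of the gene span in the annotation GENCODE M21. For Nupr1 and Psat1 they lie well inside that span, and for Chac1, Asns, Sesn2 and Slc7a11 a short way inside it. The Asns and Nupr1 stretches shown, with their cores, thus lie within the gene span, which for Asns ends at chr6:7693254. Thus 5 of the 10 genes held the core, against 4.51% of 27025 genes with a RefSeq promoter; within the 250 bases before the start alone it was 4 of 10 against 3.91%. The letters CCACG, the end of the endoplasmic reticulum stress response element, were in 8 of 10, against 35.5% of genes. No core was found in this window of Atf4, Atf5, Ddit3, Sesn2 or Psat1. A match is a description of the letters and does not show that a factor was bound in islets.

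Library totals ran from 22990164 to 29946680 counts. Levels are given as CPM, the usual scaling of read counts by library depth, with TMM factors, and a gene was called changed when its p, adjusted by Benjamini-Hochberg over all 17590 genes, was under 0.05 in the quasi-likelihood test of edgeR. Slc30a8 itself had 47.9, 55.9 and 44.0 CPM in untreated KO islets, 126, 95.7 and 111 CPM in untreated Het islets and 98.8, 123 and 125 CPM in untreated WT islets. With cytokines KO islets had 20.8, 23.2 and 20.0 CPM, Het islets 32.1, 34.3 and 56.6 CPM and WT islets 34.5, 43.7 and 46.4 CPM. It was called lower in KO than in WT islets, while Het and WT islets overlapped; the labels do not name the deleted exons, so its count is no check of the Het label. The 8 beta cell markers summed to 14.3% to 23.1% of the scaled counts in every library, and Nos2, whose product makes nitric oxide in inflammation, rose with cytokines in each genotype. The size of its rise rests on few reads, since the untreated libraries held 1, 2 and 23 reads of Nos2 in KO, 10, 5 and 37 in Het and 84, 22 and 20 in WT islets. Its log2 fold change was 7.82 in KO, 6.77 in Het and 5.34 in WT islets, and its highest values without 1 library were 10.15, 7.97 and 6.27. The 7 T and B cell markers summed to 20.0 CPM in replicate 3 of the untreated KO islets and to at most 3.04 CPM in every other library. That library also had the highest sums of the 7 macrophage markers, at 343 CPM against at most 177 CPM elsewhere, and of the stellate or mesenchymal markers given with the cytokine responses. The labels do not say which libraries came from which mice, so the p-values measure the spread between these libraries.

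Most of these messages were lower with cytokines. In each genotype 8 of the 10 genes fell, Slc7a11 rose, and Nupr1 did not pass the test. Over all genes tested, 16% were called lower and 15.3% higher in KO islets, 11.7% and 12.7% in Het islets, and 13.1% and 12.5% in WT islets. Across genotypes, all 9 cytokine-treated libraries lay below all 9 untreated libraries for those 8 genes, as they did for 6.34% of all genes, and above them for Slc7a11, as for 8.19%. The median log2 fold change of the 10 genes was -1.02 in KO, -0.93 in Het and -0.85 in WT islets, against -0.030, -0.031 and -0.0053 over all genes tested. RNA came from whole islets, so fewer cells of a type and less RNA per cell cannot be told apart. Marker sums of other cells moved with the cytokines. The 5 alpha cell markers summed to 8508 to 12752 CPM with cytokines and 13964 to 19133 CPM without in KO islets, to 8793 to 9849 CPM with and 12636 to 18796 CPM without in Het islets, and to 7097 to 9610.5 CPM with and 10905 to 15183 CPM without in WT islets. Of the 5, 2 were called lower in each genotype and none was at 0. The 7 stellate or mesenchymal markers, of which 1 was called lower in KO, 7 in Het and 3 in WT islets, summed to 413 to 1446 CPM with cytokines and 1311 to 3296 CPM without in KO islets, to 308 to 851 CPM with and 881 to 2504 CPM without in Het islets, and to 565 to 984 CPM with cytokines and 1347 to 1559 CPM without in WT islets. The 3 delta cell markers, of which 1 was called lower in KO, 0 in Het and 2 in WT islets, summed to 4172 to 5679 CPM with cytokines and 5713 to 7886 CPM without in KO islets, to 4236 to 4756 CPM with and 5268 to 7177 CPM without in Het islets, and to 3918 to 4987 CPM with and 5069 to 7238 CPM without in WT islets. Of the 8 beta cell markers 5 were called lower in each genotype and 1 was called higher, in KO islets alone, and they summed to 159722 to 202013 CPM with cytokines and 185715 to 231179 CPM without in KO islets, to 152300.0 to 180800.0 CPM with and 162135 to 199033 CPM without in Het islets, and to 142595 to 161404 CPM with and 165190.0 to 190758 CPM without in WT islets. The part of all these cells in the result was not tested.

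**Figure D1:**
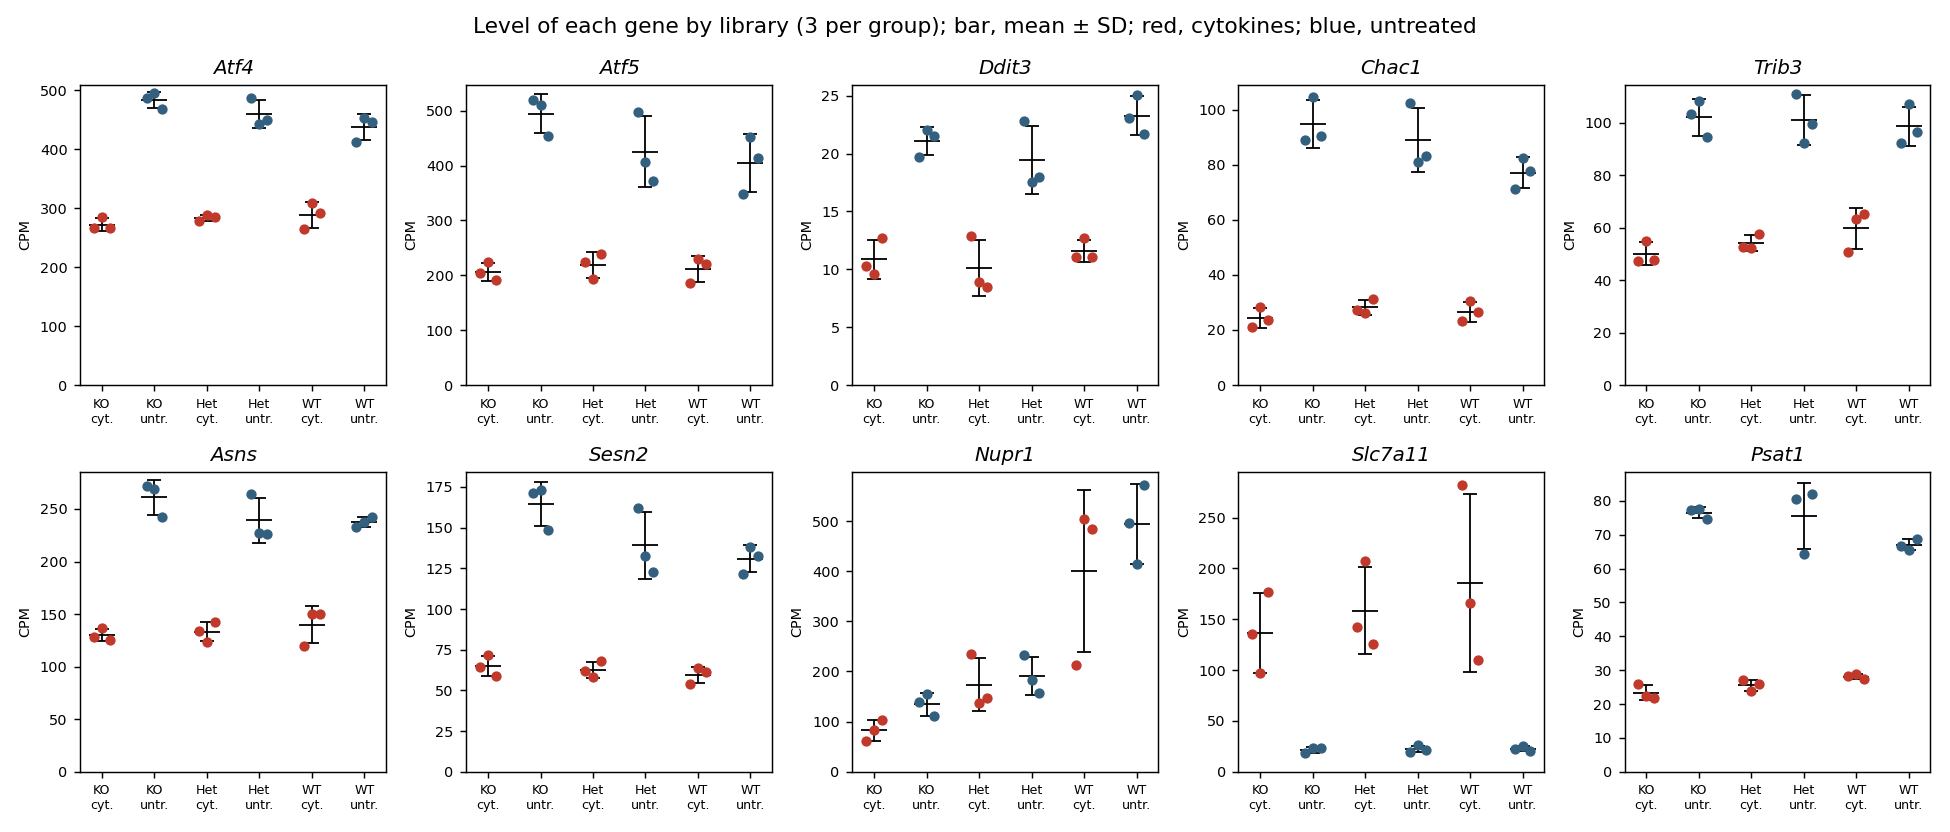
Level of each of the 10 genes in CPM (linear axes from 0) in every library, grouped by genotype, with cytokine-treated (red) left of untreated (blue) libraries; bars are mean ± SD of 3 libraries. In 8 genes all 9 red points lie below all 9 blue points, Slc7a11 shows the opposite, and Nupr1 differs mainly between genotypes.

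The transcription factors fell together. Atf4, the bZIP factor at the centre of the pathway (ENSMUSG00000042406, chr15:80255184-80257541, plus strand of GRCm38, as are all gene positions here), had 266, 284 and 266 CPM in cytokine-treated KO islets and 486, 495 and 468 CPM in untreated KO islets. In Het islets it had 278, 288 and 285 CPM with cytokines and 487, 443 and 449 CPM without. In WT islets it had 265, 309 and 291 CPM with cytokines and 413, 453 and 446 CPM without. Treated and untreated libraries did not overlap in any genotype, and the coefficient of variation within a group was 1.76% to 7.68%. Atf4 fell, with log2 fold changes of -0.83 ± 0.058 (SE) in KO, -0.70 ± 0.058 in Het and -0.60 ± 0.058 in WT islets, with edgeR adjusted p of 2.97e-08, 2.66e-07 and 1.77e-06. These are message levels; ATF4 is regulated mostly at translation, which was not measured here.

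Atf5, a related bZIP factor translated under the same control and known to protect beta cells (ENSMUSG00000038539, chr7:44812256-44816658, minus strand), had 204, 224 and 192 CPM in cytokine-treated KO islets and 519, 511 and 454 CPM in untreated KO islets. It had 224, 194 and 238 CPM with cytokines and 498, 407 and 372 CPM without in Het islets. In WT islets the values were 185, 230.4 and 221 CPM with cytokines and 349, 452 and 414 CPM without. Every treated library lay below every untreated one, and the untreated Het and WT libraries were more scattered than the treated ones. The log2 fold changes were -1.26 ± 0.12 in KO, -0.96 ± 0.12 in Het and -0.93 ± 0.12 in WT islets (SE; edgeR adjusted p = 1.51e-06, 3.11e-05 and 4.67e-05). Atf5 shares 82 exon bases with Il4i1 and Nup62 on the opposite strand.

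Ddit3, which encodes CHOP, the factor tied to cell death under lasting stress (ENSMUSG00000025408, chr10:127290774-127296288, plus strand), had the lowest level per exon length of the 3 factors in each group. It had 10.3, 9.55 and 12.7 CPM in cytokine-treated KO islets and 19.7, 22 and 21.5 CPM in untreated KO islets. Het islets had 12.9, 8.90 and 8.50 CPM with cytokines and 22.8, 17.6 and 17.9 CPM without. WT islets had 11, 12.7 and 11.1 CPM with cytokines and 23.1, 25.1 and 21.7 CPM without. The treated libraries were lower in every genotype without overlap, and replicate 1 of both Het groups was the highest of its group. The log2 fold change was -0.96 ± 0.15 in KO, -0.95 ± 0.15 in Het and -1.0 ± 0.15 in WT islets (SE), with edgeR adjusted p of 0.000118, 0.000174 and 0.000106. Of its 1713 exon bases, 105 are shared with the shorter Ddit3 gene ID on the same strand. On the opposite strand 13 are shared with Gm4189 and 68 with Mars, and Mars also fell, at log2 fold changes of -0.95, -0.77 and -0.68. The labels do not say whether the counting used strand.

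Targets that act in cell death, feedback and growth control fell as well. Chac1, which encodes an enzyme that breaks down glutathione (ENSMUSG00000027313, chr2:119351229-119354381, plus strand), had 21.1, 28.3 and 23.5 CPM in cytokine-treated KO islets and 89.1, 105 and 90.6 CPM in untreated KO islets. In Het islets Chac1 had 27.4, 26.1 and 31.1 CPM with cytokines and 103, 81.2 and 83.3 CPM without. In WT islets Chac1 had 23.2, 30.5 and 26.4 CPM with cytokines and 71.3, 82.3 and 77.8 CPM without. The highest treated library was below the lowest untreated library by a wide margin. Its log2 fold changes, -1.97 ± 0.13 in KO, -1.66 ± 0.13 in Het and -1.53 ± 0.13 in WT islets (SE), had edgeR adjusted p of 2.18e-08, 1.57e-07 and 4.85e-07. Chac1 was thus 3.91-fold lower with cytokines in KO islets and 2.89-fold lower in WT islets.

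Trib3, a pseudokinase gene induced by ATF4 and CHOP whose product restrains both (ENSMUSG00000032715, chr2:152337422-152344032, minus strand), had 47.3, 55 and 47.8 CPM in cytokine-treated KO islets and 103, 108 and 94.4 CPM in untreated KO islets. Het islets had 52.5, 52.2 and 57.5 CPM of Trib3 with cytokines and 111, 92.2 and 99.6 CPM without. WT islets had 50.6, 63.4 and 65.2 CPM of Trib3 with cytokines and 92.2, 107 and 96.7 CPM without. No treated library reached an untreated one. The log2 fold change was -1.03 ± 0.10 in KO, -0.90 ± 0.10 in Het and -0.72 ± 0.10 in WT islets (SE; edgeR adjusted p = 8.85e-07, 4.77e-06 and 5.00e-05).

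Sesn2, which encodes sestrin 2, a leucine sensor that restrains mTORC1 (ENSMUSG00000028893, chr4:132492032-132510501, minus strand), had 64.5, 71.5 and 58.7 CPM in cytokine-treated KO islets and 172, 173 and 149 CPM in untreated KO islets. For Sesn2, Het islets gave 62.1, 58.2 and 67.8 CPM with cytokines and 162, 132 and 123 CPM without. WT islets gave 54.1, 63.6 and 61.1 CPM with cytokines and 122, 138 and 133 CPM without. The treated levels of all 9 libraries lay close together and below all untreated ones. Sesn2 fell, at -1.34 ± 0.11 in KO, -1.15 ± 0.10 in Het and -1.13 ± 0.10 in WT islets (log2 fold change, SE; edgeR adjusted p = 1.21e-07, 8.24e-07 and 1.34e-06).

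Both amino acid synthesis genes among the 10 fell. Asns, which encodes asparagine synthetase (ENSMUSG00000029752, chr6:7675169-7693254, minus strand), had 128, 137 and 126 CPM in cytokine-treated KO islets and 272, 269 and 242 CPM in untreated KO islets. Asns had 134, 124 and 142 CPM with cytokines and 264, 227 and 227 CPM without in Het islets. Asns had 119, 150.1 and 149.8 CPM with cytokines and 233, 238 and 243 CPM without in WT islets. Again no treated library overlapped an untreated one; the lowest treated WT library was replicate 1. The log2 fold changes of Asns were -1.0 ± 0.086 in KO, -0.84 ± 0.086 in Het and -0.77 ± 0.085 in WT islets (SE), with edgeR adjusted p of 2.55e-07, 2.27e-06 and 7.10e-06.

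Psat1, which encodes phosphoserine aminotransferase of the serine synthesis pathway (ENSMUSG00000024640, chr19:15904678-15947337, minus strand), had 25.9, 22.4 and 21.7 CPM in cytokine-treated KO islets and 77.4, 77.5 and 74.7 CPM in untreated KO islets. Psat1 in Het islets had 27.0, 23.8 and 25.9 CPM with cytokines and 80.4, 64.3 and 82.0 CPM without. Psat1 in WT islets had 28.2, 28.9 and 27.3 CPM with cytokines and 66.6, 65.6 and 68.8 CPM without. The WT groups were tight, and in every genotype the treated libraries lay far below the untreated ones. Psat1 fell, at -1.71 ± 0.084 in KO, -1.56 ± 0.084 in Het and -1.25 ± 0.083 in WT islets (log2 fold change, SE), and its edgeR adjusted p of 6.32e-10, 2.17e-09 and 3.93e-08 were the smallest among the 10 genes in each genotype.

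Slc7a11 moved the other way. It encodes xCT, the cystine and glutamate exchanger that supplies cysteine for glutathione and is known as a target of both ATF4 and NRF2 (ENSMUSG00000027737, chr3:49892526-50443614, minus strand). It had 136, 97.2 and 177 CPM in cytokine-treated KO islets and 18, 23 and 22.9 CPM in untreated KO islets. In Het islets Slc7a11 had 143, 207 and 126 CPM with cytokines and 19.4, 25.9 and 21.7 CPM without. In WT islets Slc7a11 had 282, 166 and 109.9 CPM with cytokines and 22.6, 24.9 and 20.1 CPM without. Untreated libraries were all low, and treated libraries were high but scattered, most of all in WT islets, where replicate 1 was the highest of all 18. The rise was 6.41-fold in KO, 7.11-fold in Het and 8.26-fold in WT islets, or 2.68 ± 0.33, 2.83 ± 0.33 and 3.05 ± 0.33 on the log2 scale (SE; edgeR adjusted p = 3.14e-05, 2.67e-05 and 1.69e-05). Nfe2l2, which encodes NRF2, was called higher in KO (0.32) and WT islets (0.45) and had a log2 fold change of 0.20 in Het islets (edgeR adjusted p = 0.230). It was named after its values were seen. These are message levels, and the part of NRF2 in the rise of Slc7a11 was not tested.

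Nupr1, a small stress-induced chromatin protein known from acute pancreatitis (ENSMUSG00000030717, chr7:126623249-126630861, minus strand), was the exception under cytokines. It had 61.7, 82.9 and 102 CPM in cytokine-treated KO islets and 139, 156 and 110.3 CPM in untreated KO islets. Nupr1 had 234, 138 and 148 CPM with cytokines and 233, 183 and 158 CPM without in Het islets. In WT islets Nupr1 had 214, 503 and 485 CPM with cytokines and 495, 414 and 572 CPM without. Treated and untreated libraries overlapped in Het and WT islets. In KO islets the highest treated library, at 102 CPM, was near the lowest untreated one, at 110.3 CPM. The log2 fold change was -0.71 ± 0.31 in KO, -0.14 ± 0.31 in Het and -0.30 ± 0.31 in WT islets (SE), and none passed the test (edgeR adjusted p = 0.104, 0.796 and 0.522). Replicate 1 of the cytokine-treated WT islets was far below the other two, and without it the WT log2 fold change was 9.1e-05. By limma voom with quality weights Nupr1 was called lower in KO islets (-1.04, adjusted p = 0.00780), the 1 of 16 alternatives to do so, with 0.00780 to 0.313 over them.

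**Figure D2:**
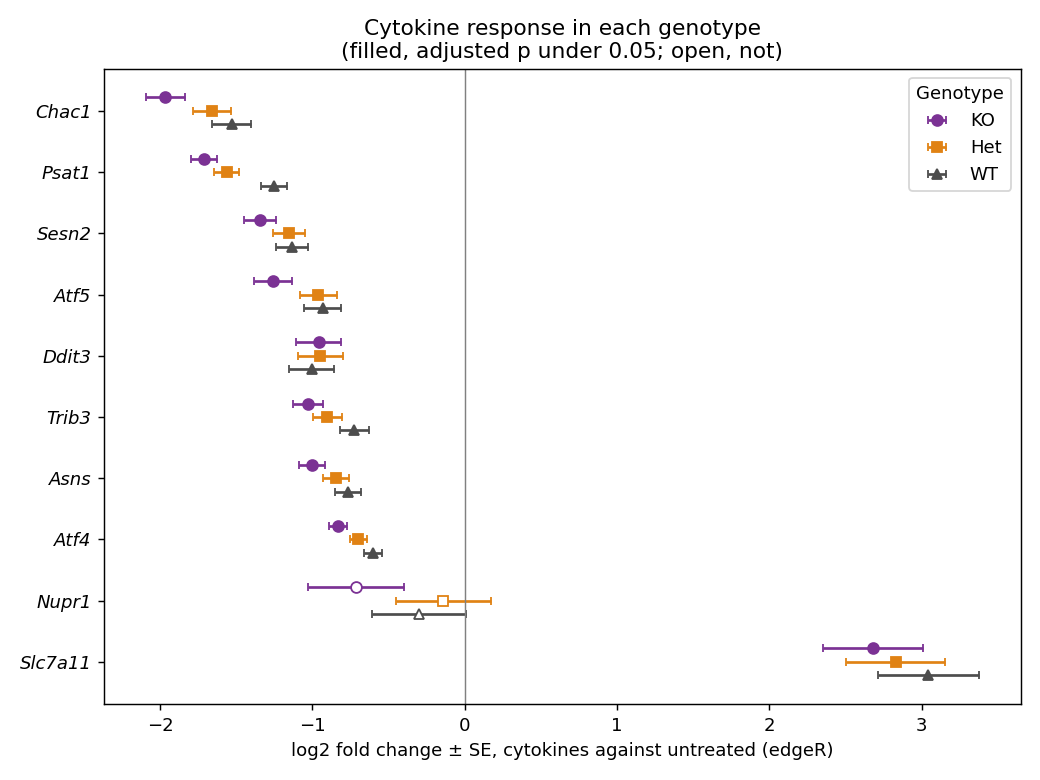
Log2 fold change, cytokine-treated against untreated islets, of each gene in KO (circles), Het (squares) and WT (triangles) islets; bars are the standard error of the edgeR fit, and filled symbols passed the test. Chac1 and Psat1 lie farthest to the left, Slc7a11 lies near 3, and the Nupr1 symbols are open.

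Per length of exon (RPKM, the CPM per kilobase of exon), Atf5 and Atf4 were among the highest of the 10 genes and Slc7a11 the lowest in untreated islets of each genotype. The length was that of all annotated exons of a gene merged, 13922 bases for Slc7a11, 2514 for Nupr1 and 1713 for Ddit3. The order between genes depends on this choice of length. Atf5 had 248 RPKM in untreated KO, 213 in untreated Het and 203 in untreated WT islets, and Atf4 had 205, 195 and 185 RPKM. Their library ranges overlapped in untreated Het islets but not in untreated KO islets, and in untreated WT islets Nupr1, at 196 RPKM, stood between them and overlapped with both. Asns followed at 95.4, 87.5 and 87.0 RPKM, and Slc7a11 stood at 1.53, 1.6 and 1.62 RPKM. Chac1 and Trib3 overlapped in untreated Het and WT islets, and in untreated KO islets Chac1, Nupr1, Trib3 and Sesn2 each overlapped with the next in order. With cytokines Atf4 stood above Atf5 in mean in each genotype, with overlapping ranges, and in treated WT islets Nupr1, at 159 RPKM, stood above both in mean and overlapped with Atf4. The lowest treated levels belonged to Psat1 and Ddit3, which overlapped with each other in each genotype: Psat1 had 5.49 RPKM in treated KO, 6.02 in treated Het and 6.61 in treated WT islets, and Ddit3 had 6.34, 5.89 and 6.77 RPKM. Slc7a11 then stood above both in mean, at 9.81, 11.4 and 13.4 RPKM.

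Between genotypes, Nupr1 was the 1 gene of the 10 that passed the test. In untreated islets it was called lower in KO than in WT islets, where 2.4% of all genes were called lower and 0.534% higher. With cytokines it was again called lower, where 3.8% of all genes were called lower and 1.52% higher. Nupr1 averaged 135 ± 23.1 CPM in untreated KO and 494 ± 78.9 CPM in untreated WT islets, and 82.3 ± 20.3 CPM in treated KO and 401 ± 162 CPM in treated WT islets (SD, n = 3 each). The KO and WT libraries did not overlap in either condition, and the Het libraries lay between them in mean. KO islets were 3.66-fold lower untreated, at -1.87 ± 0.32 on the log2 scale (SE; edgeR adjusted p = 0.00931), and 4.87-fold lower with cytokines, at -2.28 ± 0.33 (adjusted p = 0.00241). Without replicate 1 of the untreated KO islets the untreated call was lost (-1.88, edgeR adjusted p = 0.0531), and so was the cytokine call in a fit of cytokine-treated KO and WT islets alone (-2.28, adjusted p = 0.0644). Over 15 alternative settings the adjusted p ran from 4.19e-07 to 0.937 untreated and from 7.09e-11 to 0.975 with cytokines, and 13 of the 15 kept the call in each.

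Markers of acinar cells, the enzyme-secreting cells of the exocrine pancreas that surround the islets, moved with Nupr1. The 15 markers, none of them at 0 throughout, summed to 748, 1555 and 1677 CPM in cytokine-treated KO islets and 1573, 2317 and 1514 CPM in untreated KO islets. The sums were 4069.5, 2989 and 2689 CPM in treated Het and 3639, 4186 and 2762 CPM in untreated Het islets. They were 5314, 10019.9 and 8711 CPM in treated WT and 7799.7, 7707 and 7529.8 CPM in untreated WT islets. KO libraries were thus lowest, Het libraries in between and WT libraries highest, with no overlap between genotypes, and replicate 1 of the treated WT islets was lowest of its group for the markers as for Nupr1. Of 13 acinar markers that passed the filter, 12 were called lower in untreated KO than in WT islets and 11 with cytokines. Nupr1 came to between 4.02% and 8.82% of the marker sum in every library. With the marker sum as a covariate, added after the data were seen, the KO against WT difference of Nupr1 was -0.14 untreated and -0.060 with cytokines (edgeR adjusted p = 0.937 and 0.975), and 0 of 17590 genes were called in either comparison. Genotype and acinar marker level cannot be told apart here. Of 6 duct markers and of 6 endothelial markers, 2 each were called lower in KO than in WT islets in either condition, and their part was not tested.

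**Figure D3:**
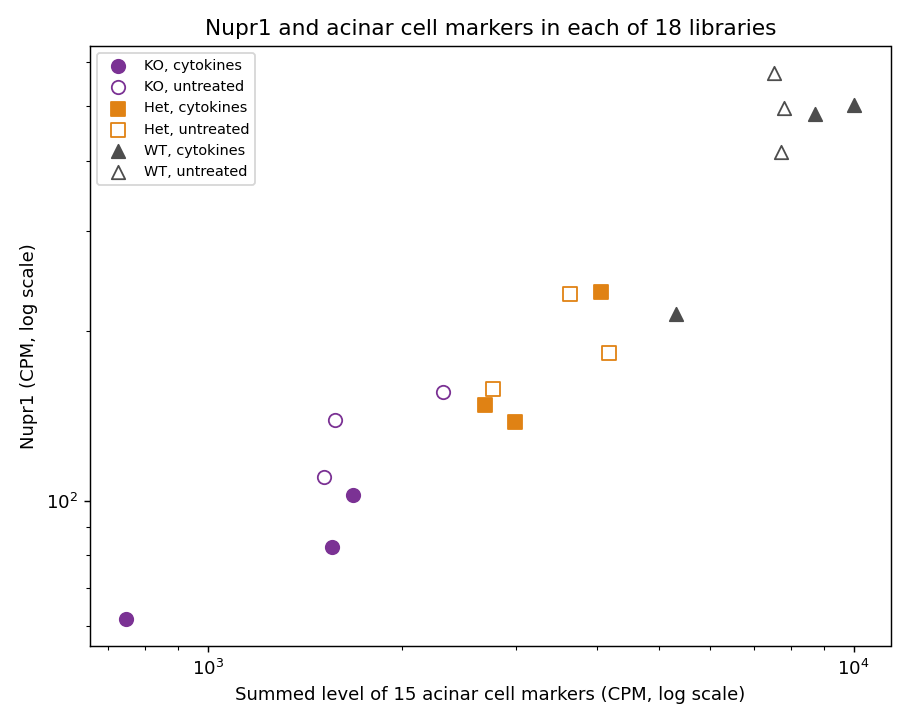
Nupr1 (CPM, log scale) against the summed level of 15 acinar cell markers (CPM, log scale) in each of 18 libraries; filled symbols are cytokine-treated and open symbols untreated. KO libraries lie at the lower left, WT libraries at the upper right and Het libraries between them, with replicate 1 of the treated WT islets at 214 CPM of Nupr1.

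For the other 9 genes no KO against WT difference passed the test. In untreated islets 5 of them, Atf4, Atf5, Chac1, Sesn2 and Psat1, had every KO library above every WT library, as 11% of all genes did; every KO library lay below every WT library for Nupr1, as for 14.7%. Of the 10 genes, 6 had an unadjusted p under 0.05 by edgeR, as did 18.3% of all genes. Sesn2 was the nearest to the threshold, at 0.33 ± 0.10 on the log2 scale (SE; edgeR adjusted p = 0.0971), and DESeq2 (0.34, adjusted p = 0.0361) and limma voom (0.35, adjusted p = 0.00892) called it higher, with adjusted p of 0.00892 to 0.626 over 15 alternatives. Atf4 differed by 0.14, Atf5 by 0.29, Chac1 by 0.30 and Psat1 by 0.19 (edgeR adjusted p = 0.198, 0.223, 0.205 and 0.221). Of these 4, Chac1 was called higher by limma voom (adjusted p = 0.0410), and Psat1, like Sesn2, in an edgeR fit of the groups compared alone (adjusted p = 0.0400 and 0.0378). Ddit3 was at -0.14 ± 0.14 (adjusted p = 0.658). With cytokines the values of the 9 genes ran between -0.44, for Slc7a11, and 0.12, for Sesn2, and without 1 library Slc7a11 lay between -0.71 and -0.013 and Sesn2 between 0.049 and 0.19. Of these 9 Psat1 alone had every KO library below every WT library, as 16% of all genes did; 3 of the 10 genes had an unadjusted p under 0.05, against 24% of all genes. Psat1 was at -0.27 ± 0.085 (adjusted p = 0.0735). Trib3 was at -0.26 ± 0.10 (adjusted p = 0.129) and was called lower without replicate 1 of the treated WT islets (-0.36, adjusted p = 0.0492, with 0.00688 to 0.886 over 15 alternatives). By limma voom 3 of the 9 were called lower with cytokines, Trib3 (adjusted p = 0.00688), Atf4 (0.0350) and Chac1 (0.0463).

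In Het islets, with 1 working copy of Slc30a8, 0 of the 10 genes were called against WT islets by edgeR. Over all genes, 0.00569% were called untreated and 0% with cytokines. At an unadjusted p under 0.05 there were 2 genes untreated, Nupr1 and Psat1, and 1 with cytokines, Nupr1, where 6.97% and 7.03% of all genes stood. Nupr1 was at -1.37 ± 0.31 untreated, with every Het library below every WT library, as for 7.24% of all genes, and at -1.21 ± 0.31 with cytokines, where the libraries overlapped (edgeR adjusted p = 0.305 and 0.370). With cytokines every Het library was below every WT library for Psat1, as for 8.16% of all genes. DESeq2 called Nupr1 lower in both (adjusted p = 0.00800 and 0.0337), and limma voom called it lower with cytokines (adjusted p = 0.0318). KO against Het islets also gave 0 calls by edgeR, where 0% of all genes were called untreated and 0.00569% with cytokines. Sesn2 untreated and Nupr1 with cytokines were the genes at an unadjusted p under 0.05 there, 1 of 10 in each, against 14.6% and 8.32% of all genes. Nupr1 was at -0.50 ± 0.31 untreated and -1.08 ± 0.32 with cytokines (edgeR adjusted p = 0.476 and 0.414). In both conditions every KO library lay below every Het library for Nupr1, as for 6.32% and 7.83% of all genes in that direction. By limma voom Sesn2 was called higher untreated (0.35) and Nupr1 lower with cytokines (-1.37). Leaving out replicate 1 of the untreated Het islets, edgeR called Sesn2 higher in untreated KO islets (0.37, adjusted p = 0.0269). KO and Het islets share the WT libraries in these comparisons, so their values stand side by side and are not independent.

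The size of the cytokine response was compared between genotypes by an interaction term. None of the 10 interactions passed the test, by edgeR, DESeq2 or limma voom, for KO minus WT, Het minus WT or KO minus Het, where 0.0114%, 0% and 0% of all genes were called by edgeR. At an unadjusted p under 0.05 there were 4 genes for KO minus WT, 1 for Het minus WT and 0 for KO minus Het, against 6.73%, 4.79% and 5.73% of all genes. The 4 were Atf4 (-0.23 ± 0.082), Chac1 (-0.43 ± 0.18), Trib3 (-0.30 ± 0.14) and Psat1 (-0.46 ± 0.12), with edgeR adjusted p of 0.561, 0.657, 0.725 and 0.310. Psat1 for Het minus WT was at -0.31 ± 0.12 (adjusted p = 0.881). For Slc7a11, the KO minus WT difference was -0.37 ± 0.44 (adjusted p = 0.927).

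The rest of the pathway was read from 7 lists, whose values are log2 fold changes, cytokine-treated against untreated, given for KO, Het and WT islets in turn. Their counts stand beside the shares of all genes given above, 16% lower and 15.3% higher in KO, 11.7% and 12.7% in Het, and 13.1% and 12.5% in WT islets. Upstream, 2 of the 4 sensor kinase messages were not called under cytokines in any genotype in the main edgeR fit. Eif2ak3, encoding PERK, was at -0.018, 0.016 and -0.057 in KO, Het and WT islets, and Eif2ak4, encoding GCN2, at -0.11, 0.095 and -0.12. Of 16 alternatives, 1 called Eif2ak4 in WT islets. Eif2ak2, encoding the interferon-induced kinase PKR, rose in KO (0.44) and Het islets (0.28) and was at 0.20 in WT islets (edgeR adjusted p = 0.0512; 0.0136 to 0.245 over 16 alternatives, 9 of which called it); its Het call was lost in a fit of the groups compared (adjusted p = 0.0654). Eif2ak1, encoding the heme-regulated kinase HRI, rose in Het islets (0.18) and was at 0.12 in KO and 0.10 in WT islets, not called. Without replicate 2 of the treated Het islets its Het call was lost (edgeR adjusted p = 0.0630), as in a fit of the groups compared (0.0585). Without replicate 3 of the treated or replicate 1 of the untreated KO islets it was called in KO (edgeR adjusted p = 0.0406 and 0.0188). In WT islets 1 of 16 alternatives called it. Ppp1r15a, encoding GADD34, the phosphatase subunit that ends the response and an ATF4 and CHOP target itself, fell, at -0.58, -0.43 and -0.55, and the eIF2beta gene Eif2s2 fell, at -0.34, -0.38 and -0.29. Of the 19 sensors and eIF2 genes, 1 rose and 3 fell in KO, 3 rose and 3 fell in Het, and 0 rose and 2 fell in WT islets by edgeR, near the shares of all genes or under them. By limma voom 3 rose in KO islets, and 2 rose and 5 fell in WT islets; RLE scaling and DESeq2 each called 1 higher in WT islets.

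Several bZIP partners of ATF4 and CHOP rose. Among 8 bZIP partners, 5 rose and 1 fell in KO, 3 rose and 1 fell in Het, and 5 rose and 1 fell in WT islets. Cebpb, encoding a CEBP factor induced in inflammation, rose by 1.23 ± 0.082, 1.08 ± 0.082 and 1.09 ± 0.082 in KO, Het and WT islets. Cebpa rose by 0.79, 0.71 and 0.80, and Jun by 0.75, 0.52 and 0.48. Without replicate 2 of the treated Het islets the Het calls of Cebpa and Jun were lost (edgeR adjusted p = 0.0568 and 0.0655), as in a fit of the groups compared (0.0773 and 0.0918), and the WT call of Jun was lost without replicate 1 or 2 of the treated or 2 or 3 of the untreated WT islets (adjusted p up to 0.0981). Atf3, a repressor-type bZIP factor downstream of ATF4, fell, at -0.34, -0.51 and -0.42 (edgeR adjusted p = 0.0390, 0.00494 and 0.0137); its KO call was lost by DESeq2 (adjusted p = 0.0602) and in 10 of the other 15 alternatives, leaving out any KO library but replicate 3 of the treated ones among them, with adjusted p of 0.00772 to 0.155. Its WT call was lost without replicate 1 of either WT group (adjusted p up to 0.0640).

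The metabolic targets fell. All 11 genes of amino acid and one-carbon synthesis fell in each genotype, with median log2 fold changes of -1.50 in KO, -1.41 in Het and -1.16 in WT islets. Aldh1l2, a mitochondrial folate enzyme, fell, at -2.21 ± 0.16, -2.0 ± 0.15 and -1.89 ± 0.16. Cth, the enzyme that makes cysteine from cystathionine, fell, at -2.27, -1.67 and -1.24, Phgdh, which starts serine synthesis, at -2.01, -1.78 and -1.27, and Pycr1, of proline synthesis, at -1.82, -1.65 and -1.48. Of 13 tRNA synthetase and tRNA export genes, 12 fell in each genotype, and Nars was not called. Mars fell, at -0.95, -0.77 and -0.68, Eprs at -0.90, -0.70 and -0.72, Lars at -0.81, -0.68 and -0.66, and Cars at -0.82, -0.69 and -0.56. Of 9 other amino acid transporters, 7 fell in KO, 6 in Het and 4 in WT islets and 0 were called higher by edgeR. Slc7a3 fell, at -1.12, -1.29 and -1.08, Slc1a4 at -1.06, -0.86 and -0.73, Slc7a1 at -0.95, -0.74 and -0.58, and Slc7a5 at -0.66, -0.48 and -0.52. Slc3a2, the partner chain of xCT, was at -0.29 in KO islets, where it was called lower, and at -0.15 in Het and -0.10 in WT islets, not called; it was named after its values were seen.

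Other targets of ATF4 or CHOP were mixed, with 3 higher and 6 lower of 16 in KO, 3 and 6 in Het, and 3 and 7 in WT islets. Bbc3, encoding the death protein PUMA, fell, at -1.47 ± 0.15, -1.40 ± 0.15 and -1.09 ± 0.15, and Eif4ebp1, a brake on translation initiation, at -0.95, -0.67 and -0.50. Ddit4, an inhibitor of mTORC1, rose by 0.80, 0.52 and 0.67, and Vldlr, a lipoprotein receptor, by 0.79, 0.64 and 0.44. The Het call of Ddit4 was lost in a fit of the groups compared (edgeR adjusted p = 0.0831). Fgf21, a stress-induced hormone gene that stayed under 2 CPM in mean in every group and is named after its values were seen, fell, at -2.20, -1.93 and -2.64. The ATF6 and IRE1 arms of the endoplasmic reticulum stress response had 3 higher and 2 lower of 14 in KO, 3 and 1 in Het, and 4 and 2 in WT islets by edgeR, while limma voom called 4 lower in KO and 5 higher in Het islets. With 14 genes these counts differ by few genes from the shares of all genes, and no test compared them. Edem1 rose by 0.83, 0.77 and 0.58, Xbp1 by 0.68, 0.72 and 0.71 and Calr by 0.33, 0.30 and 0.34, while Ern1, encoding IRE1alpha, fell, at -0.69, -0.56 and -0.65. The Het call of Calr was lost in a fit of the groups compared (edgeR adjusted p = 0.0578). Hspa5, encoding the chaperone BiP, was at 0.0024, 0.013 and -0.00090 in KO, Het and WT islets, with a sign that changed between settings and no call.

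**Figure D4:**
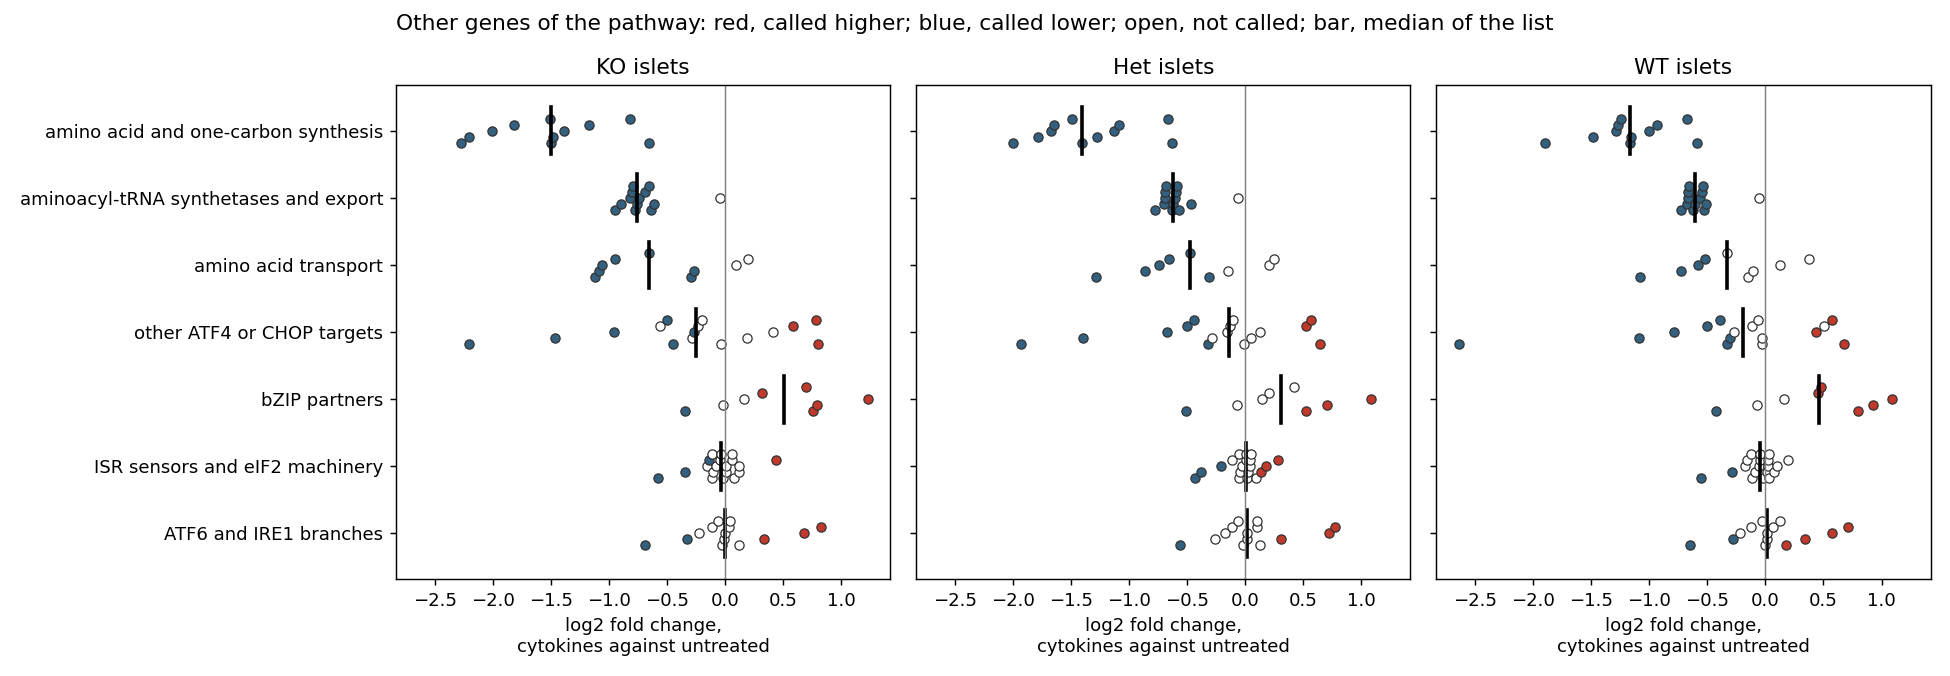
Log2 fold change, cytokine-treated against untreated islets, of every gene of 7 pathway lists in KO, Het and WT islets; red points were called higher, blue points lower and open points neither, and bars are list medians. The synthesis and tRNA synthetase lists lie to the left of 0 in each genotype, and the sensor and the ATF6 and IRE1 lists centre on 0.

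The same lists were read between KO and WT islets, where 2.4% of all genes were called lower and 0.534% higher untreated, and 3.8% lower and 1.52% higher with cytokines. Of 11 synthesis genes, 0 were called in untreated islets and 2, Phgdh and Shmt2, were called lower with cytokines. In untreated islets 1 of 19 sensor and eIF2 genes, 2 of 8 bZIP partners and 1 of 16 other targets were called lower in KO islets and 1 of 14 ATF6 and IRE1 genes higher, with 0 transporters and 0 tRNA synthetase genes called. With cytokines 2 sensor and eIF2 genes, 1 bZIP partner, 2 transporters, 1 tRNA synthetase gene and 3 other targets were called lower, and 1 sensor and eIF2 gene and 3 ATF6 and IRE1 genes higher. Eif2ak3, encoding PERK, was lower in KO islets in both conditions, at -0.38 ± 0.060 untreated and -0.34 ± 0.060 with cytokines (SE; edgeR adjusted p = 0.00434 and 0.00526). Atf3 was lower in KO islets as well, at -0.63 ± 0.12 untreated and -0.55 ± 0.12 with cytokines (adjusted p = 0.0104 and 0.0164). Both were lost with the acinar marker sum as a covariate: Eif2ak3 was then at -0.087 untreated and 0.026 with cytokines, and Atf3 at -0.41 and -0.28. With that covariate 0 of all genes tested were called for KO against WT islets in either condition, so the loss is not particular to these genes. Genotype and acinar marker level cannot be told apart, and the part of acinar cells in these differences was not tested. Over 15 alternatives the adjusted p of Eif2ak3 ran from 3.48e-06 to 0.816 untreated and from 6.83e-05 to 0.950 with cytokines, with 14 calls in each, and that of Atf3 from 0.000242 to 0.681 and from 0.000678 to 0.778, with 12 and 10 calls. Atf3 was among the calls lost without replicate 1 of either untreated group, and without replicate 1 or 2 of the treated KO islets or replicate 2 of the treated WT islets.

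Within groups, the genes whose level varied most like that of Atf4 and Ddit3 from library to library were found among 13098 genes of at least 2 CPM, by Pearson correlation of log2 CPM after the group means were removed, over 18 libraries. CPM is already scaled for depth, and removing 6 group means from 18 libraries leaves 12 degrees of freedom. The 3 genes named for each were picked as the highest of 13098, so their values are a description. For Atf4 they were Shmt2, of mitochondrial serine and folate metabolism (r = 0.913), Tcn2 (r = 0.896) and Slc5a6 (r = 0.886). For Ddit3 they were Iars, the isoleucine tRNA synthetase gene (r = 0.912), Amy1 (r = 0.859) and Ulk2 (r = 0.836). Among the 10 genes themselves, the 45 pairs had r between -0.82 and 0.95, with a median of 0.26, and 37 were above 0. Every pair below 0 included Slc7a11. Pairs among Atf4, Atf5, Chac1, Trib3, Asns and Sesn2, grouped after the values were seen, ran from 0.77 to 0.95. With those genes Ddit3 and Psat1 had only 0.093 to 0.26.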

How the data were processed

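RNA of 18 islet libraries was measured by RNA-seq. The values deposited by the authors are whole-number counts of reads for each of 55536 gene rows, not normalised, beside a smaller table of counts for the genes they kept. Per the submitters' processing notes, FastQC 0.11.7, cutadapt 1.16, STAR 2.5.2a, featureCounts 1.6.2, Subread, DESeq and DESeq2 1.30.0 were used with build GRCm38; their roles, the strand setting and the annotation release are not given in the sources used here.

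Counts were fitted with edgeR 4.0.16 in R 4.3.3 (TMM scaling, filterByExpr with a count minimum of 10, robust quasi-likelihood fit of 6 group means over 18 libraries with 12 residual degrees of freedom), with 12 comparisons. Each p was adjusted by Benjamini-Hochberg over 17590 genes and called under 0.05. SE is the absolute log2 fold change divided by the root of F. CPM used TMM library sizes. RPKM divided by the length of all annotated exons of a gene, merged, in GENCODE M21. Library totals ran from 22990164 to 29946680 counts, so values under 1 CPM rest on few reads. Alternatives were RLE scaling, no filter, the authors' filtered gene set, only the groups compared, DESeq2 1.42.0, limma 3.58.1 voom with quality weights, replicate blocks and leaving out each library; an acinar covariate and leaving out both libraries of lowest quality weight were added after seeing the data. Those of lowest quality weight were replicate 1 of the untreated Het islets (0.231) and replicate 3 of the untreated KO islets (0.479). The latter is the library with the highest lymphocyte, macrophage and stellate or mesenchymal marker sums. The fit was also run on counts simulated from the model it assumes, with 200 genes changed and no other difference between groups. That run lacks the acinar differences of these data, so it says little about the comparisons here. Figures used matplotlib 3.10.9.

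The 10 genes and the lists were chosen with earlier results of these data known. Named from each list were up to 4 genes of at least 2 CPM called in 1 direction in all 3 cytokine comparisons, by largest mean change, beside the sensor kinases, Ppp1r15a, Atf3, Hspa5 and Nos2; exceptions are marked where they stand. Lists are described by counts and medians, without a test.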

Additional observations from a re-analysis of the deposited data

How the results depend on the processing

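The 9 cytokine calls among the 10 genes kept their direction and stayed called in 432 of 432 recomputed values, and RLE scaling moved the median of all genes by at most 0.016 on the log2 scale in any comparison. The cause of the changes was not tested. Between genotypes, the number of the 10 genes called for KO against WT islets was 1 untreated and 1 with cytokines. Untreated it was 3 in a fit of the groups compared, 2 by DESeq2, 3 by limma voom, 0 with the acinar covariate and 2 without the libraries of lowest quality weight; with cytokines it was 0 in the fit of the groups compared, 4 by limma voom and 0 with the covariate. For Het against WT islets it was 0 by edgeR and 1 by DESeq2 untreated, and 0 by edgeR and 1 by DESeq2 and by limma voom with cytokines; for KO against Het islets it was 1 by limma voom in both conditions and 2 untreated without the libraries of lowest quality weight. Leaving out 1 library at a time gave 0 to 1 (KO against WT, untreated), 0 to 1 (KO against Het, untreated) and 1 to 2 (KO against WT, cytokines). Of the lists under cytokines, limma voom called 3 sensor genes higher in KO, 2 higher and 5 lower in WT, 1 transporter higher in KO, 4 ATF6 and IRE1 genes lower in KO and 5 higher in Het; RLE scaling and DESeq2 called 1 sensor gene higher in WT, and DESeq2 called 0 bZIP partners lower in KO. Some directions turned, that of the called Eif2ak3 with cytokines among them. With the acinar covariate these were, for KO against WT, Ddit3 (0.35) and Psat1 (-0.053) untreated, and Atf4 (0.12), Atf5 (0.32), Ddit3 (0.52), Chac1 (0.47), Trib3 (0.11), Asns (0.22) and Eif2ak3 (0.026) with cytokines; for KO against Het, Nupr1 (0.30 untreated, 0.052 with cytokines); Nupr1 for the KO minus WT response (0.077); and Eif2ak3 (0.051) and Hspa5 (-0.011) under cytokines in KO islets. None of these values with the covariate was called. With cytokines the KO against WT values of Ddit3 and Chac1 had SE of 0.35 and 0.28 (edgeR adjusted p = 0.676 and 0.653). Genotype and acinar marker level cannot be told apart, so the turned signs give no direction. Eif2ak3 in KO islets was 0.00077 in the fit of the groups compared. Without the libraries of lowest quality weight, Nupr1 in Het islets was 0.027 and Hspa5 in KO islets -0.0078. Hspa5 in WT islets was 0.010 with RLE scaling, 0.0058 without a filter, 0.0015 in the authors' gene set, 0.0069 in the groups compared, 0.010 by DESeq2, 0.024 by limma voom and 0.00035 with the replicate block. Without 1 library the cytokine responses of Nupr1 ran from -0.42 to 0.027 in Het and -0.48 to 9.1e-05 in WT islets, those of Eif2ak3 from -0.039 to 0.011, -0.029 to 0.061 and -0.10 to 0.0076 in KO, Het and WT islets, and those of Hspa5 from -0.035 to 0.052, -0.064 to 0.093 and -0.017 to 0.023; for KO against WT, Slc7a11 untreated ran from -0.16 to 0.039 and Atf5 with cytokines from -0.13 to 0.039.

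Replicate numbers were not taken as pairs, by a rule that asked for every correlation of deviations to be over 0.1. Of 9 same-numbered pairs within a genotype 7 were over 0.1, in a range of -0.46 to 0.68, and 6 of 9 correlated best with their own number. These values do not show that the libraries were unpaired, and the labels do not tie libraries to mice. With a replicate block, 9 of the 10 genes were called under cytokines in each genotype, and Nupr1 was called for KO against WT at -1.87 untreated and -2.28 with cytokines, so the block changed no count of calls among the 10. The number of libraries, 3 a group, limits the precision.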
